A study of Mus musculus with 21 samples.

Results

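The 9 genes described here, Rflnb, Arl4c, Gm14085, Ggt5, Ypel3, Narf, Dapk1, Maml3 and Pdlim4, were picked for a large fall from the control level in CD4+ T cells that had met antigen in vivo. Each was found by its name in the deposited log2 table and followed to its row of the raw count table, which holds 47643 genes, of which 15300 had at least 10 reads over all samples. The cells came from spleens of Tg4 Tiger Nr4a3-Tocky mice: in Tg4 mice the T cells bear 1 transgenic receptor, specific for a myelin basic protein peptide, Nr4a3-Tocky places a Timer protein that matures from blue to red fluorescence under Nr4a3, a gene switched on by receptor signalling, and Tiger reports Il10 with GFP. Controls were not immunised. The 4Y MBP peptide was given s.c. without adjuvant at 0.8 µg or at 80 µg, and cells were taken after 4 h, 12 h or 24 h, which makes 7 groups of 3 libraries. All groups shared the transgenes, so that these are cells of 1 receptor specificity and the responses of a mixed repertoire were not measured. Per the study's methods cells with new Timer protein alone (Blue+Red−) were sorted after 4 h, those with both forms (Blue+Red+) after 12 h and those with mature protein alone (Blue−Red+) after 24 h, so time after immunisation and gate cannot be told apart, and the gate of the control cells is not given in the sources used here.

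T cells at rest are kept so by an active programme of transcription in which KLF and FOXO family factors hold up genes of homing, survival and quiescence. Receptor signalling removes these factors from the nucleus or stops their synthesis, and many transcripts of the resting state decline while those of activation and growth rise. The 9 genes have diverse products. Rflnb (refilin B) binds filamin and bundles actin, Arl4c is a small GTPase of the ARF-like family that acts in membrane traffic and the cortical cytoskeleton, and Pdlim4 is a PDZ and LIM domain adaptor of actin fibres. Gm14085, which RefSeq names Slc28a2b, belongs to the concentrative nucleoside transporters, and Ggt5 is a gamma-glutamyl transferase that cleaves glutathione conjugates such as leukotriene C4. Ypel3 is a small zinc-binding protein of the Yippee-like family linked to growth arrest, and Narf binds prenylated prelamin A in the nucleus. Dapk1 is a calmodulin-regulated kinase of cell death and autophagy, and Maml3 is a Mastermind-like coactivator that joins the Notch intracellular domain and RBPJ on DNA.

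The genes lie on 7 chromosomes. In the GENCODE vM21 annotation of GRCm38, Rflnb is at chr11:76019194-76027782, Pdlim4 at chr11:54054928-54069014 and Narf at chr11:121237253-121255856, far apart on chromosome 11. Arl4c is at chr1:88673125-88702221, Gm14085 at chr2:122484941-122528040, Maml3 at chr3:51685907-52105076 and Ypel3 at chr7:126776955-126780514. Ggt5 is at chr10:75589340-75617200 and Dapk1 at chr13:60601947-60763191. All are protein coding, and no exon of any of them overlaps an exon of another annotated gene. Gm14085 stands beside its close copy Slc28a2, which is at chr2:122426477-122461137 on the same strand.

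Promoter sequence from RefSeq (GRCm38.p6) was matched for 8 of the 9 members, Gm14085 under its RefSeq name; Ggt5 was not matched. The 250 bases before the start are shown for Rflnb and Gm14085, which had the largest falls at 4 h with 0.8 µg, for Narf, which returned closest to control by 24 h, and for Slc28a2, the neighbour of Gm14085. Capitals mark matches to any of 7 motifs, read on both strands, and the remaining bases are in lower case. None of the matches shown overlap each other. The windows are chr11:76027783-76028032 (minus strand) for Rflnb, chr2:122484691-122484940 (plus) for Gm14085, chr11:121236986-121237235 (plus) for Narf and chr2:122426185-122426434 (plus) for Slc28a2.
Rflnb: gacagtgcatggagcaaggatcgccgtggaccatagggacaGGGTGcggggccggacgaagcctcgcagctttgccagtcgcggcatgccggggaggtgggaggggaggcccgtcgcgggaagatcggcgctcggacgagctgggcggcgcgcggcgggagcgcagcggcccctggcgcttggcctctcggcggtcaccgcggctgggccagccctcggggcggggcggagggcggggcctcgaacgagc
Gm14085: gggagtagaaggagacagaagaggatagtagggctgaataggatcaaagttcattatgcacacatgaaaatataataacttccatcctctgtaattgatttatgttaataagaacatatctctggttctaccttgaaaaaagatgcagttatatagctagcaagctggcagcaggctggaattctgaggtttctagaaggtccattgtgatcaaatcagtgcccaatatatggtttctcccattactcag
Narf: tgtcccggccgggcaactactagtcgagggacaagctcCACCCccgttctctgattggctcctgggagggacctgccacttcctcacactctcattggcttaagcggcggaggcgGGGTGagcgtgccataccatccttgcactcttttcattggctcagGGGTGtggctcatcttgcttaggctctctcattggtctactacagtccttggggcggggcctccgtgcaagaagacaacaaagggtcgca
Slc28a2: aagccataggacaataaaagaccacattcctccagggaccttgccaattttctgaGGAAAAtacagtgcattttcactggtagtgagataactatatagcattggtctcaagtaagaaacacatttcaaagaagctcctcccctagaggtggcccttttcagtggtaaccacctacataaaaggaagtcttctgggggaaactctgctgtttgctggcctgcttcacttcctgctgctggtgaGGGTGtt
The capitals in Rflnb and Narf are CACCC, a core that KLF factors bind, or its reverse complement. In Slc28a2 they are GGAAAA, the core of NFAT sites, and the complement of CACCC, and in Gm14085 no motif matched.

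CACCC was present in 6 of 8 members (Rflnb, Ypel3, Narf, Dapk1, Maml3 and Pdlim4) and in 51.3% of 27025 promoters of the same length. In the 100 bases nearest the start it was present in 1 member, Narf, and in 26.8% of promoters. The forkhead core TGTTTAC was present in 1 member, Maml3, against 3.09% of promoters, and GGAAAA in 1, Maml3, against 20.6%. The E-box CACGTG, the AP-1 site TGANTCA, the ETS core CCGGAAG and the TATA element TATAAA matched none of the 8 windows, and 6.05%, 6.87%, 7.05% and 13.0% of all promoters hold them. The GC content of the window was 38.4% in Gm14085 and 58.8% to 78.4% in the other 7 members, beside a median of 52% over all promoters. The ATTTA pentamer of AU-rich elements occurred 7 times in the longest annotated 3′ UTR of Arl4c and not at all in those of Ypel3 and Pdlim4, which are 401 and 224 bases long. Per kilobase the 9 members ranged from 0 to 3.20, beside a median of 1.33 over 8037 measured genes.

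Which values may have chosen the members has to be stated before any of them is read. Genes called lower than control were ranked by the shrunken log2 fold change in each immunised group, keeping those whose mean reached 20 normalised counts and whose libraries did not overlap the controls. These rankings were rebuilt here to show which values may have chosen the members, and they do not give all 9. The first 2 places at 4 h were Rflnb and Gm14085 with 0.8 µg (-7.49 and -7.36, SE 0.37 and 0.60) and Gm14085 and Arl4c with 80 µg (-8.38 and -8.27, SE 0.69 and 0.42). The genes just outside were Il7r (-7.29) and Card6 (-8.03). At 12 h the first places were Gm14085 and Ggt5 with 0.8 µg (-7.14 and -6.86), ahead of Hmgb1-ps8 (-6.47), and Gm14085 and Ypel3 with 80 µg (-7.44 and -7.12), ahead of Zbtb20 (-6.95). At 24 h with 0.8 µg Pdlim4 (-3.48) followed Gm37283 (-3.73), and Ggt5 (-3.47) was just outside. At 24 h with 80 µg Ebf1, a transcription factor of B cells (-4.21), and Rgs11 (-3.99) came first, Xkrx (-3.66) was just outside and Dapk1 (-3.65) and Maml3 (-3.22) came next. Where the minimum was instead applied to the mean over all 21 libraries, Dapk1 and Maml3 took the first 2 places there. Narf was in no first place. The fall from control is therefore a description for all 9 members, and no test of it is given.

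**Figure D1:**
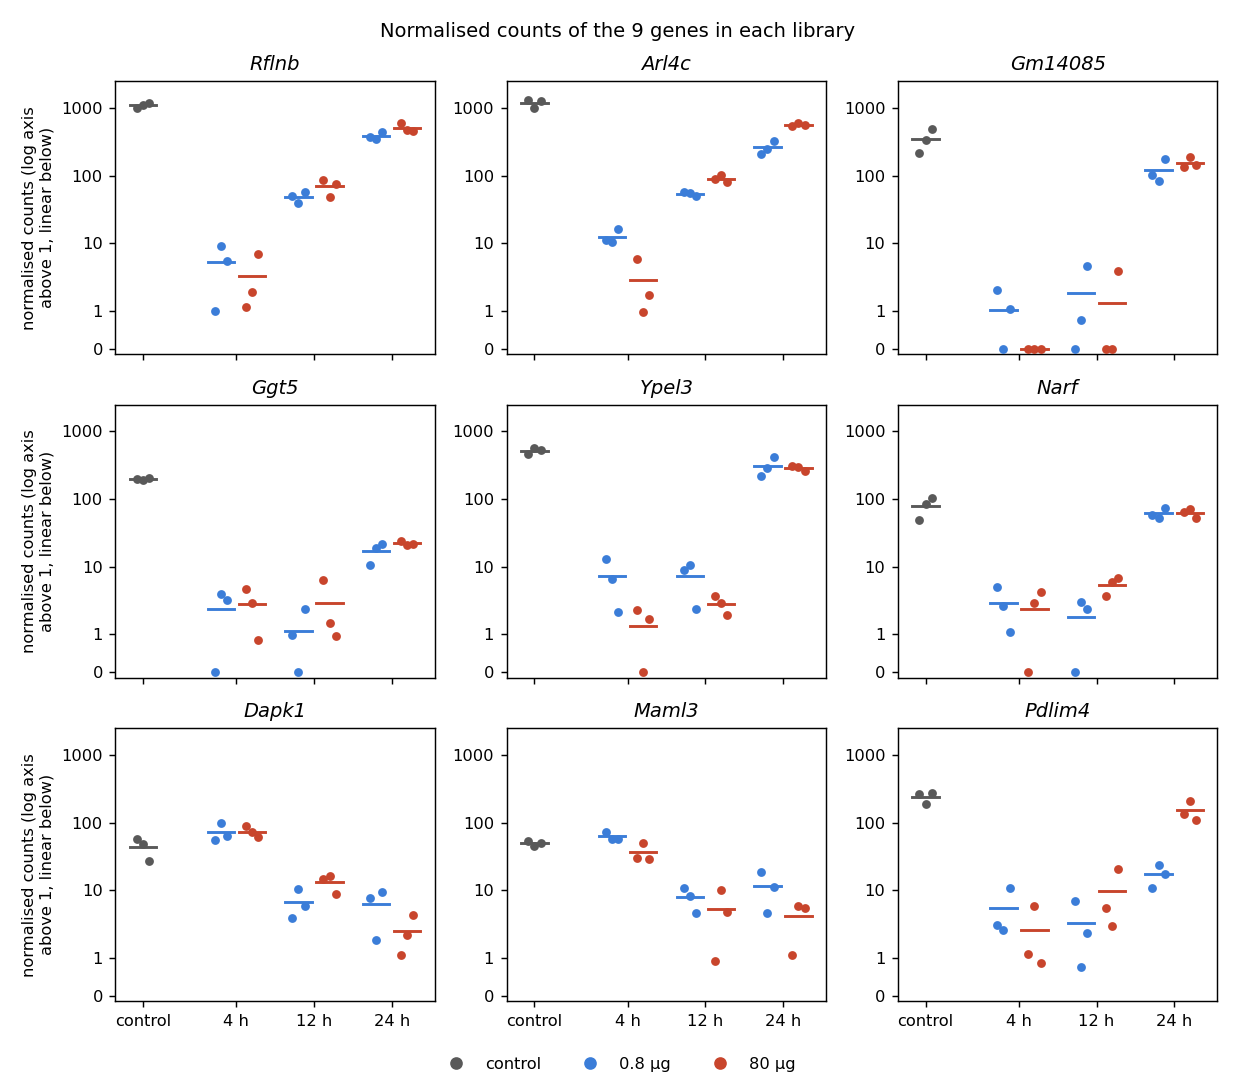
Normalised counts of the 9 genes (y axis, log above 1 and linear below, down to 0) in control cells and at 4 h, 12 h and 24 h after 0.8 µg (blue) or 80 µg (red) of peptide; points are the 3 libraries of a group and bars their mean. Rflnb, Arl4c, Gm14085, Ggt5, Ypel3, Narf and Pdlim4 are near 0 at 4 h, whereas Dapk1 and Maml3 are near or above control at 4 h and low from 12 h.

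The members did not share a single time course. In all, 7 of 9 lay below every control library at 4 h with 0.8 µg, where 23.4% of all tested genes were called lower and 17.3% higher (adjusted p under 0.05 and an absolute shrunken log2 fold change above 1, the call used throughout). At 4 h with 80 µg 7 of 9 did so too (25.1% of genes lower, 18.4% higher). All 9 did so at 12 h with 0.8 µg (20.5% lower, 17.2% higher) and with 80 µg (20.1% lower, 17.8% higher). At 24 h, 8 of 9 did so with 0.8 µg (5.84% lower, 11.5% higher) and 7 of 9 with 80 µg (7.91% lower, 12.3% higher). The choice of members used these contrasts, so nothing is read from these counts. At 4 h Rflnb, Arl4c, Gm14085, Ggt5, Ypel3, Narf and Pdlim4 were the low members, which the choice for a large fall fixes in part. The label of genes shut off does not describe Dapk1 and Maml3 at 4 h, whose transcripts were low from 12 h on. In these bulk samples, fewer cells with a transcript and less of it per cell cannot be told apart.

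Rflnb and Arl4c, both of the cytoskeleton and cell membrane, fell to about 1% of control or less at 4 h and climbed back in steps. Values are normalised counts, that is counts divided by the DESeq2 size factor of the library. Rflnb was at 1002, 1110.4 and 1198 in the control libraries and at 1.01, 9.22 and 5.40 at 4 h with 0.8 µg. With 80 µg at 4 h it was at 1.16, 1.94 and 6.86. Its 4 h libraries thus held 1 to 8 reads each, and those of the doses overlapped. The control mean was 212 times the 0.8 µg mean (95% exact interval from the summed counts 131 to 423) and 333 times the 80 µg mean (170.0 to 611), intervals that, like those of the other ratios to control, cover counting error only.

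By 12 h Rflnb was back at 50.0, 39.9 and 57.5 with 0.8 µg and at 86.8, 49.2 and 74.8 with 80 µg. At 24 h Rflnb was at 377, 352 and 443 with 0.8 µg and at 591, 468 and 459 with 80 µg. The group means were then 35.4% ± 4.24 and 45.8% ± 6.68 of the control mean (SD, n = 3). In the order of its 7 group means, control came first, then 24 h with 80 µg, 24 h with 0.8 µg, 12 h with 80 µg, 12 h with 0.8 µg and the 4 h groups. The libraries of the doses overlapped at 4 h and at 12 h and did not overlap at 24 h, nor did any other neighbours in that order overlap.

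Arl4c followed the same steps with a clearer separation of the doses. It was at 1303, 1013 and 1252 in the control libraries, at 11.1, 10.5 and 16.2 at 4 h with 0.8 µg and at 5.79, 0.97 and 1.71 at 4 h with 80 µg. At 12 h it was at 57.8, 54.9 and 49.3 with 0.8 µg and at 88.6, 100.5 and 80.7 with 80 µg. At 24 h Arl4c was at 206, 248 and 330.3 with 0.8 µg and at 538, 599.8 and 553 with 80 µg. At 4 h the low dose was the higher of the doses, and from 12 h the high dose was, with no overlap between doses at any time. The control mean was 94.3 times the mean at 4 h with 0.8 µg (66.4 to 135) and 421 times that with 80 µg (229 to 1049). The 80 µg mean rests on 5, 1 and 2 reads, and without replicate 1 the ratio would be higher. At 24 h Arl4c stood at 22.0% ± 5.30 of control with 0.8 µg and at 47.4% ± 2.70 with 80 µg.

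Pdlim4, the third cytoskeletal member, was low through 12 h and came back with the high dose. Its control libraries held 263, 189 and 271 normalised counts. At 4 h it was at 3.03, 2.63 and 10.8 with 0.8 µg and at 1.16, 5.81 and 0.86 with 80 µg. At 12 h it was at 6.86, 0.75 and 2.35 with 0.8 µg and at 5.48, 2.93 and 20.4 with 80 µg. Libraries of the doses overlapped at both of these times, and 1 library of the 80 µg group at 12 h, replicate 3, lay well above its fellows.

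At 24 h Pdlim4 was at 10.7, 23.3 and 17.5 after 0.8 µg and at 135, 210.5 and 109.7 after 80 µg. The means were 7.14% ± 2.62 and 63.0% ± 21.8 of control, and 1 library of the 80 µg group lay above the lowest control library. The log2 fold change between doses at 24 h was 2.87 (SE 0.60), the widest of the 9 members at that time, and 2.19 with only the groups compared in the fit. It is a description here because the ranking at 24 h with 0.8 µg named the gene.

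**Figure D2:**
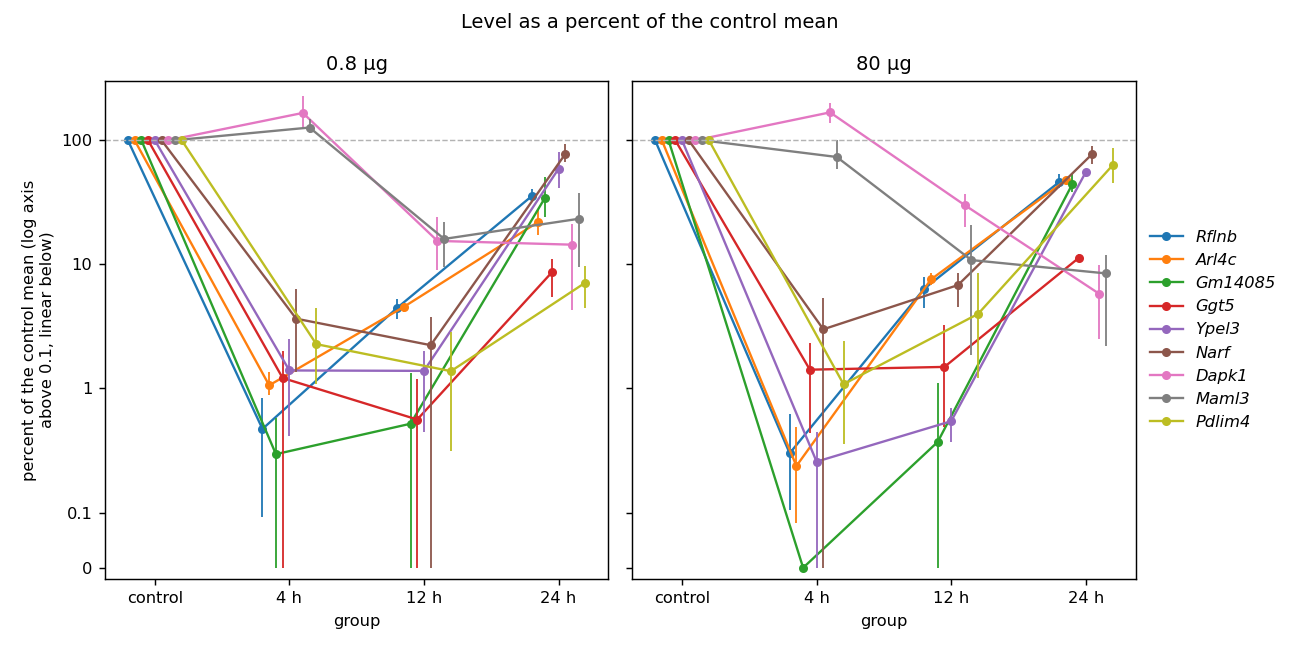
Group means of the 9 genes as a percent of the control mean (y axis, log above 0.1 and linear below) in control cells and at 4 h, 12 h and 24 h after 0.8 µg (left) and 80 µg (right); vertical lines span the lowest to the highest of 3 libraries. Narf, Ypel3, Arl4c, Rflnb and Gm14085 rise towards control by 24 h, Pdlim4 does so with 80 µg, and Ggt5, Dapk1 and Maml3 are at 5.79% to 23.3% of control.

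Gm14085, the nucleoside transporter gene, reached the lowest level of the set and was the only member with no read in a whole group. Its control libraries held 215, 336 and 497 normalised counts, the widest relative spread of the 9 (SD 40.4% of the mean). At 4 h it had 2, 0 and 1 reads with 0.8 µg and 0 in all 3 libraries with 80 µg. The control mean was 338 times the 0.8 µg mean (102 to 1449), and the 80 µg group was at least 117-fold lower than control, against a floor of 3 counts per library. At 12 h it had 0, 1 and 4 reads with 0.8 µg and 0, 0 and 4 with 80 µg, so that both doses were within counting error of each other. At 24 h it was back at 101, 83.9 and 177 normalised counts with 0.8 µg and at 135, 185 and 144 with 80 µg, which is 34.5% ± 14.1 and 44.3% ± 7.75 of control, with overlap between doses.

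Gm14085 shares most of its sequence with its neighbour, and its counts are uncertain for that reason. The longest annotated transcripts of Gm14085 and Slc28a2 aligned over 3735 bases with 96.3% identity, and over 490 of the last 500 bases with 98.6%. Of the windows of 75 bases in those last 500 bases, where 3′ libraries read, 47.7% occur unchanged in Slc28a2. How the authors treated reads that fit both genes is not given in the sources used here. The levels of the pair did differ: at 12 h Slc28a2 was at 41.2, 27.1 and 24.7 with 0.8 µg and at 47.5, 16.1 and 28.2 with 80 µg, or 10.2% and 10.1% of its control mean of 304, whereas Gm14085 was at 0.52% and 0.37% of its own. Slc28a2 fell at 4 h too, to 1.77% with 0.8 µg and 0.98% with 80 µg, and stood at 47.8% and 69.6% at 24 h. Upstream, by contrast, the best local alignment of the windows of Gm14085 and Slc28a2 printed above covered 8 bases.

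Ggt5, the transferase, fell as early as the transporter gene and recovered least of the 7 early members with 80 µg. Its control libraries were close together at 197, 189.6 and 206. At 4 h it had 0, 3 and 3 reads with 0.8 µg and 4, 3 and 1 with 80 µg, and at 12 h 1, 0 and 2 with 0.8 µg and 7, 2 and 1 with 80 µg. Control was 82.4 times (40.0 to 239.9) and 70.5 times (37.9 to 175) the 4 h means with 0.8 µg and 80 µg. At 24 h the normalised counts were 10.7, 18.6 and 21.7 with 0.8 µg and 24.1, 21.3 and 21.6 with 80 µg. The means, 8.62% ± 2.87 and 11.3% ± 0.78 of control, remained far below every control library.

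Ypel3, linked to growth arrest, and Narf, the binder of prelamin A, were the closest to control of the 9 at 24 h with 0.8 µg. Ypel3 was at 471, 562 and 532 in control libraries, at 13.1, 6.59 and 2.16 at 4 h with 0.8 µg and at 2.31, 0 and 1.71 with 80 µg. At 12 h it was at 8.82, 10.5 and 2.35 with 0.8 µg and at 3.65, 2.93 and 1.94 with 80 µg. At 24 h it was at 216, 285 and 420.2 with 0.8 µg and at 306, 296 and 264 with 80 µg, all below the lowest control library. Its 4 h mean was 1.40% ± 1.06 of control with 0.8 µg, while with 80 µg the control mean was 388 times as high (155 to 1466). By 24 h Ypel3 had come to 58.9% ± 19.9 and 55.3% ± 4.14 of control.

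Narf was a gene of lower counts, at 49.5, 86.2 and 104 in control libraries. It had 5, 2 and 1 reads at 4 h with 0.8 µg and 0, 3 and 5 with 80 µg, and 0, 4 and 2 at 12 h with 0.8 µg and 4, 8 and 7 with 80 µg. At 24 h it was at 58.4, 53.2 and 74.3 normalised counts with 0.8 µg and at 63.6, 71.4 and 51.8 with 80 µg, within the range of the control libraries in each case. Its control mean was 27.4 times (12.9 to 60.9) and 33.4 times (14.8 to 69.7) the 4 h means. At 24 h the means were 77.5% ± 13.8 and 77.8% ± 12.3 of control, and leaving out 1 replicate number at a time moved the latter between 64.7% and 99.5%.

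Dapk1 and Maml3 formed the late pattern. Dapk1, the death-associated kinase, was at 56.7, 47.7 and 27.1 in control libraries, at 54.5, 100.1 and 63.7 at 4 h with 0.8 µg and at 88.0, 71.7 and 60.9 with 80 µg. At 4 h with 80 µg it therefore lay above every control library, at 168% ± 31.1 of the control mean, a shrunken log2 fold change of 0.71 (SE 0.38). At 12 h it was at 3.92, 10.5 and 5.87 with 0.8 µg and at 14.6, 16.1 and 8.75 with 80 µg. At 24 h it was at 7.79, 1.86 and 9.29 with 0.8 µg and at 1.10, 2.21 and 4.31 with 80 µg, where a library held 1 to 7 of its reads. The control mean was 6.94 times the mean at 24 h with 0.8 µg (4.51 to 12.6) and 17.3 times that with 80 µg (8.70 to 33.2).

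Maml3, the Notch coactivator, was at 53.6, 44.6 and 50.0 in control libraries. At 4 h it was at 72.7, 56.6 and 58.3 with 0.8 µg, above every control library, and at 30.1, 49.4 and 29.2 with 80 µg. At 12 h it was at 10.8, 8.27 and 4.70 with 0.8 µg and at 0.91, 10.3 and 4.86 with 80 µg, and at 24 h at 18.5, 4.66 and 11.4 with 0.8 µg and at 1.10, 5.89 and 5.55 with 80 µg. The level at 24 h was 23.3% ± 14.0 of control with 0.8 µg and 8.46% ± 5.41 with 80 µg, and libraries of the doses overlapped. Neither gene was nearer to control at 24 h with 80 µg than at 12 h, unlike the other 7 members.

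Between doses the levels at 4 h and 12 h are set side by side with no test, because the members were picked for low levels after antigen. Rflnb, Arl4c, Gm14085, Ggt5 and Ypel3 were among the first places of the rankings at these times. Pdlim4, Dapk1 and Maml3 were so at 24 h only. At 4 h, where 5.85% of all tested genes were called in either direction, Arl4c was lower with 80 µg, by a shrunken log2 fold change of -1.84 (SE 0.47), with no overlap of libraries, and of -1.31 without replicate 3 and -1.03 with only the groups compared in the fit. Ypel3 was at -1.83 (SE 0.59), on 13, 5 and 2 reads against 2, 0 and 2, and at -0.76 with only the groups compared. For some members the sign turned on leaving out 1 replicate. Among them were Rflnb (-0.37, SE 0.51, and 0.29 without replicate 2), Ggt5 (0.14, SE 0.67, and -0.70 without replicate 1), Narf (-0.18, SE 0.65, and 0.58 without replicate 1) and Pdlim4 (-0.81, SE 0.71, and 0.22 without replicate 3). The unshrunken 95% intervals of Ggt5 and Pdlim4, -1.41 to 1.86 and -2.84 to 0.68, are wide. Maml3 was at -0.76 (SE 0.42) and Dapk1 at 0.02 (SE 0.37). Without replicate 1 the Dapk1 libraries were at 100.1 and 63.7 with 0.8 µg and at 71.7 and 60.9 with 80 µg, so its sign is not settled either.

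At 12 h, where 2.79% of all genes were called, Arl4c was higher with 80 µg by 0.73 (SE 0.20), Rflnb by 0.52 (SE 0.21) and Narf by 1.21 (SE 0.61). Pdlim4 was at 1.23 (SE 0.68) and at 0.16 without replicate 3, and Ypel3 was lower with 80 µg, at -1.19 (SE 0.50). With only the groups compared in the fit, Narf was at 0.27, Pdlim4 at 0.33 and Ypel3 at -0.32. Ggt5 was at 1.04 (SE 0.70, and 0.14 without replicate 1) and Dapk1 at 0.85 (SE 0.48, and 0.34 with only the groups compared). Maml3 was at -0.47 (SE 0.53, and 0.17 without replicate 1) and Gm14085 at -0.30 (SE 0.72). The level at 24 h was tested, with DESeq2 and adjustment over all genes, for members that the ranking over the libraries compared had named and that neither ranking had taken from a 24 h group. These were Rflnb, Arl4c, Gm14085 and Ypel3. The rankings do not give every member, so the choice may have used 24 h levels too. Arl4c was itself called lower than control at 24 h, by -2.17 with 0.8 µg and -1.07 with 80 µg, and its test is read with that limit. Narf was named by no ranking, Dapk1 and Maml3 only by that over all 21 libraries, Pdlim4 was chosen by 24 h with 0.8 µg, and so was Ggt5 where the mean was taken over all 21 libraries. Of the 4 tested, 1 was called, beside 1.56% of all genes: Arl4c was higher with 80 µg by 1.10 (SE 0.16, adjusted p = 1.6e-09), in 3 of 3 libraries. It sits at the threshold of 1, and its fold change fell under it without replicate 1 (0.99, adjusted p = 0.000421), with library totals as size factors (0.99, adjusted p = 1.1e-06) and with only the groups compared (0.99, adjusted p = 9.9e-09). Rflnb was at 0.37 (SE 0.17, adjusted p = 0.211), Gm14085 at 0.36 (interval -0.30 to 1.03, adjusted p = 0.669) and Ypel3 at -0.09 (interval -0.53 to 0.35, adjusted p = 0.900).

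The change in the dose difference between times rests on the 4 h or 12 h levels in each case and is a description. From 4 h to 12 h, where 7.14% of all genes were called, Arl4c changed by 3.01 (SE 0.62, and 4.11 without replicate 1) and Pdlim4 by 2.63 (SE 1.21). The value of Pdlim4 rests on replicate 3, and without it was -0.13, against 4.05 without replicate 1 and 4.22 without replicate 2. From 4 h to 24 h (7.18%) Pdlim4 changed by 4.22 (SE 1.12, and 2.99 without replicate 3 and 5.90 without replicate 2), Arl4c by 3.39 (SE 0.61, and 4.31 without replicate 1) and Ypel3 by 2.42 (SE 0.85, and 3.53 without replicate 3). From 12 h to 24 h (2.64%) Rflnb changed by -0.15 (SE 0.27), Arl4c by 0.37 (SE 0.26) and Dapk1 by -2.10 (SE 0.84).

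**Figure D3:**
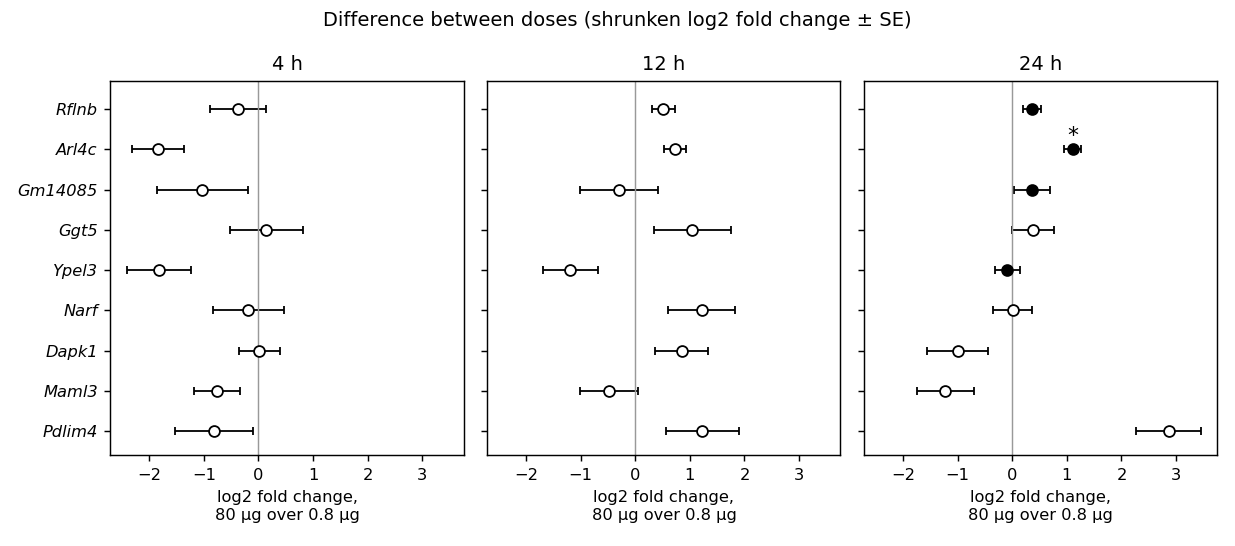
Shrunken log2 fold change of 80 µg over 0.8 µg (x axis) with its SE for the 9 genes (y axis) at 4 h, 12 h and 24 h. Filled points were tested (Rflnb, Arl4c, Gm14085 and Ypel3 at 24 h), open points are descriptions, and an asterisk marks the call of Arl4c at 24 h (1.10).

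Between times the members' differences are given with their SE and with no test, because the members were picked for a low level after antigen and a rise from such a level is partly fixed by that choice. From 12 h to 24 h the 7 early members were higher at 24 h with each dose. With 0.8 µg, where 26.6% of all tested genes were called in either direction, Gm14085 differed by 5.64 (SE 0.56), Ypel3 by 5.18 (SE 0.34), Narf by 4.55 (SE 0.55), Ggt5 by 3.39 (SE 0.63), Rflnb by 2.98 (SE 0.20), Arl4c by 2.25 (SE 0.19) and Pdlim4 by 1.99 (SE 0.67, and 1.32 without replicate 2). With 80 µg (27.2%) Gm14085 differed by 6.29 (SE 0.57), Ypel3 by 6.28 (SE 0.43), Pdlim4 by 3.62 (SE 0.61, and 4.99 without replicate 3), Narf by 3.35 (SE 0.45), Rflnb by 2.84 (SE 0.19), Ggt5 by 2.73 (SE 0.50) and Arl4c by 2.63 (SE 0.17). Dapk1 and Maml3 had values near or below 0. Dapk1 was at -0.14 (SE 0.52, and 0.64 without replicate 2) with 0.8 µg and -1.99 (SE 0.53) with 80 µg, and Maml3 at 0.47 (SE 0.50) and -0.28 (SE 0.55, and 0.22 without replicate 2). The values of Gm14085 rest on at most 4 reads a library at 12 h and were 4.63 with 0.8 µg without replicate 2, and 4.79 to 7.10 with 80 µg on leaving out each replicate. The gate changed from Blue+Red+ to Blue−Red+ between these times.

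Between 4 h and 12 h the members parted. With 0.8 µg (20.5% of all genes called in either direction) Rflnb was higher at 12 h by 3.02 (SE 0.39) and Arl4c by 2.00 (SE 0.29). The other 5 early members lay between -0.82 (Ggt5, SE 0.74) and 0.22 (Gm14085, SE 0.74), with Ypel3 at 0.03 (SE 0.45), Narf at -0.52 (SE 0.67) and Pdlim4 at -0.60 (SE 0.70), and the sign of each of these 5 turned on leaving out 1 replicate or another. Dapk1 and Maml3 were lower by -3.20 (SE 0.45) and -2.80 (SE 0.47). With 80 µg (24.8%) Arl4c was higher at 12 h by 4.57 (SE 0.42), Rflnb by 3.91 (SE 0.40) and Pdlim4 by 1.44 (SE 0.69, but 0.09 without replicate 3 and 2.51 without replicate 2), while Narf was at 0.87 (SE 0.59), Ypel3 at 0.66 (SE 0.63) and Ggt5 at 0.08 (SE 0.63, and -0.35 without replicate 1). Gm14085 is left out here because its 4 h libraries with 80 µg held no read. Dapk1 and Maml3 were at -2.37 (SE 0.41) and -2.52 (SE 0.49).

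From 4 h to 24 h, where 37.3% of all genes were called with 0.8 µg and 42.2% with 80 µg, Rflnb differed by 6.00 (SE 0.37), Gm14085 by 5.86 (SE 0.61, and 4.89 without replicate 2), Ypel3 by 5.20 (SE 0.36), Arl4c by 4.25 (SE 0.28), Narf by 4.03 (SE 0.53), Ggt5 by 2.57 (SE 0.57) and Pdlim4 by 1.39 (SE 0.65, and 0.90 to 2.10 on leaving out each replicate) with 0.8 µg. With 80 µg, again without Gm14085, Arl4c differed by 7.20 (SE 0.42), Ypel3 by 6.94 (SE 0.52), Rflnb by 6.74 (SE 0.39), Pdlim4 by 5.07 (SE 0.66), Narf by 4.22 (SE 0.52) and Ggt5 by 2.81 (SE 0.53). Dapk1 and Maml3 differed in the opposite direction, by -3.34 (SE 0.46) and -2.33 (SE 0.45) with 0.8 µg and by -4.36 (SE 0.50) and -2.80 (SE 0.50) with 80 µg.

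The members' gene families were covered by a list of 25 relatives, of which 14 or 15 could be tested in each comparison. Called lower than control were 7 of 15 at 4 h with each dose, beside 23.4% of all tested genes with 0.8 µg and 25.1% with 80 µg, and the count with 0.8 µg was 4 without replicate 1 or replicate 2. At 12 h 9 of 15 with 0.8 µg (20.5% of all genes) and 8 of 15 with 80 µg (20.1%) were lower. At 24 h 3 of 14 (5.84%, and 1 without replicate 3) and 1 of 15 (7.91%) were. The median log2 fold change of the list was -1.15 and -1.10 at 4 h and -1.17 and -1.58 at 12 h, beside -0.13, -0.15, -0.11 and -0.11 over all genes tested, and -0.37 and -0.11 at 24 h beside 0 and -0.0032. Called higher, beside 17.3% and 17.2% of all genes at 4 h and 12 h with 0.8 µg, was 1 gene, Dapk3, a kinase related to Dapk1, at 4 h (1.51, SE 0.67, adjusted p = 0.0468) and at 12 h (2.08, SE 0.65, adjusted p = 0.00489) with 0.8 µg, on a control mean of 2.66 normalised counts, and its call was lost at 4 h on leaving out any 1 replicate number and at 12 h without replicate 2 or replicate 3. Rflna, Slc28a3, Ggt6, Pdlim3 and Ldb3 had no read in any library.

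Among the Yippee-like relatives of Ypel3, Ypel5 and Ypel2 were called lower in all 4 comparisons at 4 h and 12 h. Ypel5 was at 140.2, 141 and 168 in control libraries and at 12.7, 2.26 and 3.52 at 12 h with 0.8 µg, a log2 fold change of -4.45 (SE 0.38, adjusted p = 2.9e-28). With 80 µg it was 4.05% of control at 12 h, and it stood at 73.3% and 92.3% at 24 h. Ypel2, which had few reads, was at 9.28% to 19.4% of control at 4 h and 12 h. Ypel1 was called lower at 4 h with 0.8 µg (-2.30, SE 0.98, adjusted p = 0.0392) and was not called at 4 h with 80 µg (adjusted p = 0.445) or at 12 h with 0.8 µg (adjusted p = 0.094) and 80 µg (adjusted p = 0.237). Ypel4 had 2 reads in all. Narfl, the relative of Narf in iron-sulphur protein assembly, was at 80.9% to 109% of control in the 6 immunised groups and was called in none of them.

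Among PDZ and LIM proteins, Pdlim2, an adaptor linked to degradation of NF-kB and STAT factors, was the relative of Pdlim4 with the largest fall. It was at 153, 147 and 154 in control libraries, at 35.3, 32.9 and 34.5 at 4 h with 0.8 µg and at 16.2, 7.75 and 11.1 with 80 µg. Unlike Pdlim4 it was at 143% and 118% of control at 24 h. Stk17b, a kinase of the Dapk family, fell at 4 h with 80 µg (-1.10, SE 0.12, adjusted p = 4.2e-19) while Dapk1 was high.

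**Figure D4:**
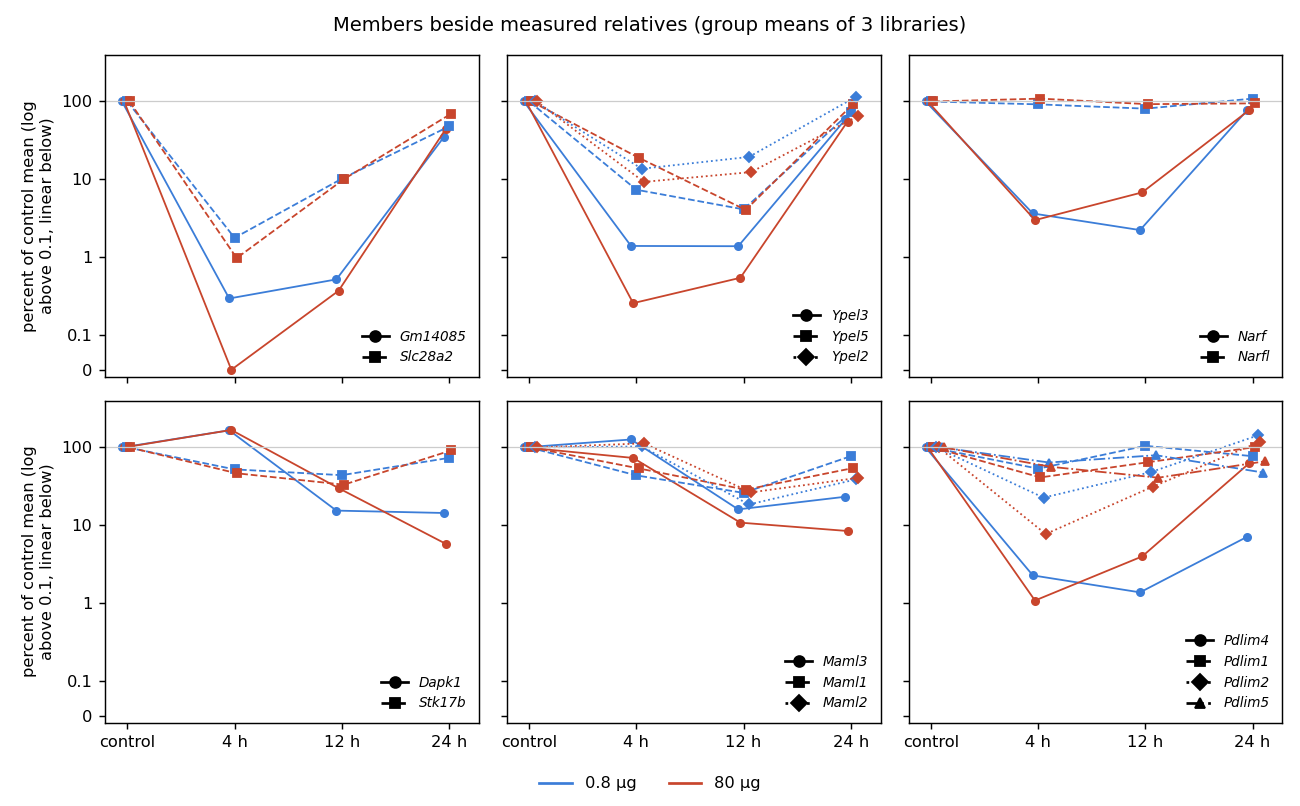
Group means of 3 libraries as a percent of the control mean (y axis, log above 0.1 and linear below) for 6 members (circles, solid lines) and measured relatives (other symbols, broken lines), with 0.8 µg in blue and 80 µg in red. Slc28a2 and Ypel5 fall at 4 h with their relatives, Maml2 falls at 12 h as Maml3 does, and Narfl is at 80.9% to 109% of control.

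Both Mastermind-like relatives of Maml3 were called lower at 12 h with each dose. Maml2 was at 306, 220.1 and 279.8 in control libraries, at 278, 261 and 291 at 4 h with 0.8 µg and at 38.2, 51.1 and 59.9 at 12 h. Its log2 fold change at 12 h was -2.41 (SE 0.19, adjusted p = 3.4e-34) with 0.8 µg and -1.89 (SE 0.18, 3.1e-24) with 80 µg, and at 24 h it was still called lower (-1.35 and -1.27). Maml1 was called lower already at 4 h with 0.8 µg (-1.15, SE 0.37, adjusted p = 0.0041) and was at -0.88 (SE 0.36, adjusted p = 0.026), short of a fold change of 1, at 4 h with 80 µg. Its log2 fold changes at 12 h were -1.87 (SE 0.38, adjusted p = 4.4e-06) with 0.8 µg and -1.75 (SE 0.37, 1.2e-05) with 80 µg. At 24 h it was at 77.2% of control with 0.8 µg and at 54.3% with 80 µg, the latter beside 53.9% at 4 h, and was not called at 24 h (-0.37, adjusted p = 0.437, and -0.85, adjusted p = 0.0387).

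Other genes of the Notch pathway, in which a receptor is cleaved and its intracellular part joins RBPJ and a Mastermind protein, held calls in both directions at 4 h and 12 h. Of 20 listed, 17 were tested. At 4 h with 0.8 µg 5 were called lower and 2 higher, beside 23.4% and 17.3% of all tested genes, and with 80 µg 3 and 2, beside 25.1% and 18.4%. With 0.8 µg the lower calls were 3 without replicate 1 and the higher calls 1 without replicate 3. At 12 h 5 were lower and 1 higher with 0.8 µg, beside 20.5% and 17.2%, and 4 and 2 with 80 µg, beside 20.1% and 17.8%, where the higher calls were 1 without replicate 1. At 24 h 2 were lower with 0.8 µg (5.84% of all genes) and 3 with 80 µg (7.91%), and 1 with each dose without replicate 1. At 24 h 0 were higher by DESeq2 and by edgeR, with 2 at an unadjusted p under 0.05 at each dose. Maml1 and Maml2 belong to both lists. The median of the list was 0.04 and 0.17 at 4 h, -0.14 and -0.49 at 12 h and -0.06 and -0.32 at 24 h.

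The receptor Notch1 was at 420, 363 and 367 in control libraries and at 1218, 1404 and 1229 at 4 h with 80 µg, a rise of 1.74 (SE 0.13, adjusted p = 9.9e-41), and Rbpj, the DNA-binding partner, rose by 1.25 (SE 0.19, 7.1e-11) there. The target gene Hes1 was at 6.18, 1.01 and 4.28 in control libraries and at 48.0, 49.6 and 52.8 at 12 h with 0.8 µg, a rise of 3.39 (SE 0.57, adjusted p = 7.1e-08). Other targets on the list, chosen after their values were seen, went other ways: Nrarp was called lower at 4 h with 0.8 µg (-1.98, SE 0.86, adjusted p = 0.035, on 1 read against 11 in controls), and Hes5 was called higher at 4 h with 0.8 µg (1.71, SE 0.60, adjusted p = 0.0115, on 85 reads against 23) and lower at 24 h with 80 µg (-2.74, SE 0.75, adjusted p = 0.00335, on 2 reads against 23). Dtx1, a ubiquitin ligase that binds Notch, fell by 4.85 (SE 0.24, adjusted p = 4.6e-84) at 4 h with 80 µg. Psen2, a catalytic subunit of the cleaving protease, fell by 2.62 (SE 0.19, 1.7e-42) and Numb, an inhibitor, fell by 2.37 (SE 0.35, 1.2e-10) at 4 h with 0.8 µg. At 12 h, when Maml3 was low with both doses, Rbpj was still higher with 80 µg (1.02, SE 0.19, adjusted p = 1.9e-07). This value sits at the threshold of 1, and higher calls of the list there were 1 with library totals as size factors or without replicate 1.

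The genes most like each member were ranked by Pearson's r of the deposited log2 values over the 21 libraries, among the 8753 genes whose mean reached 20 normalised counts. These libraries fall into 7 groups, so r largely repeats the order of the group means and is a description. Rflnb was nearest to Pik3cd, a catalytic subunit of PI3K (r = 0.99), and Als2cl (0.99), and Arl4c to Tecpr1 (0.99) and Gsk3b, a kinase (0.99). Gm14085 was nearest to Akap13 (0.99) and Acss1 (0.98), and Ypel3 to Mxd4, a repressor that pairs with MAX (0.99). Narf was nearest to another member, Gm14085 (0.98), and to Smpdl3a (0.97).

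Ggt5 and Pdlim4 had less close partners, Il6ra (0.97) and Zfp871 (0.96) for Ggt5 and Myo6 (0.96) and Atp1b3 (0.95) for Pdlim4. Dapk1 was nearest to Jmy (0.94) and 9930021J03Rik (0.93), and Maml3 to Dmxl1 (0.93) and 4632404H12Rik (0.93). Between Dapk1 and Maml3 r was 0.86. Among the 7 early members it ran from 0.82 to 0.98.

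Library totals ran from 2352800 to 6244279 counts, and 3 counts were 1.85 to 4.28 normalised counts. All 5 CD4 T cell markers were present in every group, and their summed level was 7052 to 7644 normalised counts in control libraries, 4786 to 5823 at 4 h, 3372 to 4332 at 12 h and 7121 to 8682 at 24 h. The sum hid unlike moves. At 4 h with 80 µg the means were 220 for Cd4 (control 1040), 327 for Cd3e (911), 88.5 for Cd3g (465) and 1311 for Trbc2 (2612). Trac was higher there, at 3027 (2321). The 4 B cell markers summed to 81.4 to 183 in control libraries. They were below every control library at 4 h (27.1 to 37.0), 12 h (4.86 to 42.0) and 24 h (17.3 to 39.4, with Cd79a at 0) with 80 µg. At 24 h with 0.8 µg (41.0 to 72.3) they were so too. With 0.8 µg at 4 h and 12 h they overlapped the controls. Macrophage and monocyte markers summed to 24.3 to 41.6 in control libraries and to 37.8 to 107 at 4 h with 0.8 µg, where Lyz2 was at 8.63 to 80.8 against 9.99 to 13.4. The list of Zbtb16 and Trdc, markers of NKT and gamma delta T cells, summed to 51.5 to 87.1 in control libraries and 51.4 to 68.0 at 4 h with 0.8 µg, and lay below every control library in the other 5 groups: at 8.10 to 23.2 at 4 h with 80 µg, 30.1 to 35.2 and 5.83 to 14.7 at 12 h, and 32.0 to 37.0 and 8.83 to 17.9 at 24 h with 0.8 µg and 80 µg. Zbtb16 was at 0 in the controls and in 5 of these 6 groups. The 3 NK cell markers summed to 5.71 to 9.28 in control libraries, to at most 4.70 at 4 h and 12 h, to 17.7 to 19.6 at 24 h with 0.8 µg and to 1.85 to 6.57 at 24 h with 80 µg. Foxp3 and Ikzf2, markers of regulatory T cells, summed to 155 to 336 in control libraries, to 63.6 to 82.0 and 90.3 to 117 at 4 h with 0.8 µg and 80 µg, to 384 to 433 and 127 to 168 at 12 h, and to 1208 to 2083 and 603 to 717 at 24 h. This sum was carried by Ikzf2, and Foxp3 parted from it: at 12 h with 0.8 µg Ikzf2 was at 363 to 423, above its 141 to 279 in control libraries, and Foxp3 at 3.52 to 20.3, against 14.2 to 56.7. Foxp3 was below every control library at 4 h with 0.8 µg (2.16 to 6.59) and above every one at 24 h with 80 µg (79.5 to 103), and overlapped the controls at 4 h with 80 µg (14.5 to 21.4) and at 24 h with 0.8 µg (48.5 to 193). The sum of the CD8 T cell markers Cd8a and Cd8b1 was 104 to 160 in control libraries, 76.5 to 84.5 at 4 h and 45.7 to 75.8 at 12 h with 80 µg, and 139.9 to 181 at 12 h with 0.8 µg, where Cd8a was at 45.9 to 58.7 against 2.06 to 9.99 in controls. The part of these cells in the members' levels was not tested.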

How the data were processed

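The deposited raw counts were made by the authors, who trimmed reads of 3′ libraries (QuantSeq FWD), aligned them to mm10 with STAR 2.5.2a and counted them per gene with HTSeq. The sources used here do not give the annotation release, the strand setting or whether molecular identifiers were used. The deposited log2 values are the authors' rlog transformation by DESeq2, used here only to name genes and rank likeness. Each group held biological triplicates, and the study as a whole used mice of both sexes. Members and lists were chosen with earlier results of these data known. Genes under 10 reads over all samples were dropped, and 1 model with a term per group was fitted to 21 libraries with DESeq2 1.42.0 (R 4.3.3), with normal shrinkage and Benjamini-Hochberg adjustment over all genes, following the study's methods. Intervals of log2 fold changes are unshrunken. Members were tested only between doses at 24 h, only if the ranking over the libraries compared named them and neither ranking took them from a 24 h group. Tests between times, between doses at 4 h and 12 h and of the change in dose effect had been planned and are given as descriptions, since the members were picked for low levels after antigen. The floor of 3 counts had been planned for every group at or under it, but was applied to a group at 0 only, and other low groups have exact 95% intervals. Named genes are the 9 members, up to 3 called genes each way per list, measured relatives, the 2 genes most like each member and the gene just outside each ranking, of which 1 most-like gene is not reported here. edgeR 4.0.16, other scalings and filters, a replicate block, each replicate left out and other settings were alternatives, and the scripts were tested on simulated data. Totals of 2352800 to 6244279 counts set the precision.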

Additional observations from a re-analysis of the deposited data

How the results depend on the processing

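Between doses the count of members called at 24 h was 0 with library totals as size factors, 0 with only the groups compared and 0 to 1 on leaving out each replicate. In the family list at 4 h with 0.8 µg, genes called lower numbered 4 to 5 on leaving out each replicate and genes called higher numbered 0 in each of these, with library totals, with the replicate block and with only the groups compared. Higher calls at 12 h with 0.8 µg were 0 to 1, lower calls at 24 h with 0.8 µg were 1 to 3, and lower calls at 24 h with 80 µg were 2 with library totals. In the Notch list with 0.8 µg at 4 h, lower calls were 3 to 4 and higher calls 1 to 2 on leaving out each replicate, and higher calls were 1 with library totals. Higher calls at 12 h with 80 µg were 1 with library totals and 1 to 2 on leaving out each replicate. Lower calls at 24 h were 1 to 2 with 0.8 µg and 1 to 3 with 80 µg. The causes of these changes were not tested. In the 100 bases nearest the start CACCC matched 1 member in place of 6 and GGAAAA 0 in place of 1, a window that is shorter by construction. The ranking with a mean over all 21 libraries, chosen after seeing the data, named 8 members in place of 6. A floor of 1 count in place of 3 would set Gm14085 at least 351-fold lower at 4 h with 80 µg. Library totals moved the median log2 fold change of all genes at 24 h with 80 µg from -0.0033 to -0.24. Same-numbered libraries showed no clear shared deviation: r was over 0.1 in 12 of 63 such pairs (median -0.014) and in 16 of 126 other pairs (median -0.0036). Of 21 libraries, 9 were most like their own number. Whether a number stands for a shared sort or batch cannot be told from these values. The replicate block did not change the count of members called between doses at 24 h. Members with a few reads a library limit what can be seen of dose at 4 h and 12 h.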
